A study of Arabidopsis thaliana with 6 samples.

Results

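Cytochrome P450 enzymes were measured here through 22 probe sets, 1 for each of 22 genes, out of 13350 genes named by a probe set with a single gene. The members were chosen by symbol, as CYP followed by a family number, subfamily letters and a gene number, which leaves out the cyclophilins that share the prefix CYP. P450 genes under other forms of symbol are left out too, such as CYP718, which has no subfamily letter and was too dim to test. The members are 22 of the 225 genes with such a symbol in the RefSeq gene table of TAIR10.1. Of the members, 18 belong to 1 subfamily, CYP71B, which has 35 genes in that table. The values below therefore describe mainly CYP71B, and CYP51G2, CYP78A9, CYP79A2 and CYP84A4 stand alone for their families.

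The samples were whole seedlings of Arabidopsis thaliana, Columbia ecotype, with no altered genotype named. They were raised on agar for 10 d in long days (16 h light, 8 h dark) before 8 h in liquid medium. In the auxin group (3 arrays) the medium held 1e-07 M 2,4-D, a synthetic auxin. In the brassinazole group (3 arrays) it held 1e-07 M 2,4-D and 1e-06 M brassinazole. Both groups thus carried 2,4-D, and every change below is the brassinazole group minus the auxin group. Each RNA batch was pooled from 3 seedlings, with 6 µg labelled. The titles speak of biological replicates, but the labels leave unclear if separate seedlings went into each array, so the p-values may measure technical spread only.

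P450 enzymes are heme-containing monooxygenases, most of them anchored in the endoplasmic reticulum and fed with electrons by an NADPH-dependent reductase. Plants hold many of them, which build and break down hormones, wall polymers, pigments and defence compounds. Brassinosteroids, growth-promoting steroid hormones, are made by P450 enzymes such as DWF4, CPD and ROT3. Brassinazole is a triazole that inhibits DWF4 by binding at its heme, so the compound acts on an enzyme of the superfamily whose transcripts are described here. The CYP71 family is a large P450 family in Arabidopsis and includes PAD3 (CYP71B15), which completes the synthesis of the defence compound camalexin. The substrates of most other CYP71B enzymes are not well established, and no role is given for them below.

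The 6 arrays were close to each other, with a Spearman correlation across probe sets of 0.9854 to 0.9893 within groups and 0.9808 to 0.9854 between them. Some control probe sets differed by group. The ratio of the 3' to the 5' actin control, a measure of RNA integrity, was 12.3 to 17.3 in the auxin group and 18.8 to 21.1 in the brassinazole group, and the 5S rRNA control read 133.7 to 173.9 and 230.0 to 284.3. The 25S rRNA control stood at 981.4 on auxin replicate 1 and at 174.0 to 215.0 on the other arrays. Values are given for 4 of the tissue markers planned, and RCA is the only shoot gene among them. The leaf gene RCA was at 25000 ± 666 and 26080 ± 3053 (SD, n = 3 each), and the root gene PYK10 at 15030 ± 2088 and 15910 ± 1430. Of the root hair genes, EXPA7 had a log2 change of -0.37 (limma adjusted p = 0.0916) and EXPA18 one of -0.44 (adjusted p = 0.0806). The part of these differences in the P450 values was not tested. In whole seedlings, fewer cells of a type and less RNA per cell cannot be told apart.

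Of the 22 P450 probe sets, 15 were bright enough to be tested, and 4 of these differed between the groups, all of them CYP71B genes. CYP71B22 and CYP71B23 rose with brassinazole, and CYP71B5 and CYP71B34 fell. The changes were small, from 1.25-fold to 1.75-fold on the log2(signal + 16) scale. Over all tested probe sets, 7.52% passed limma's test at an adjusted p under 0.05, 3.44% in the higher and 4.08% in the lower direction, against 4 of 15 P450 genes, 2 in each direction. With so few genes, and members of 1 subfamily, nothing particular to P450 enzymes follows from that share. The count of 4 fell to 1 without auxin 2, auxin 3 or brassinazole 2, where 5.05%, 4.89% and 4.81% of all probe sets passed. It fell to 2 without brassinazole 1 or brassinazole 3, where 5.92% and 6.78% passed. CYP71B22 was among the genes that passed each time. The median log2 change was 0.01 over the P450 genes and -0.01 over all 17059 probe sets tested. The median size of the change, without its sign, was 0.17 and 0.13.

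**Figure D1:**
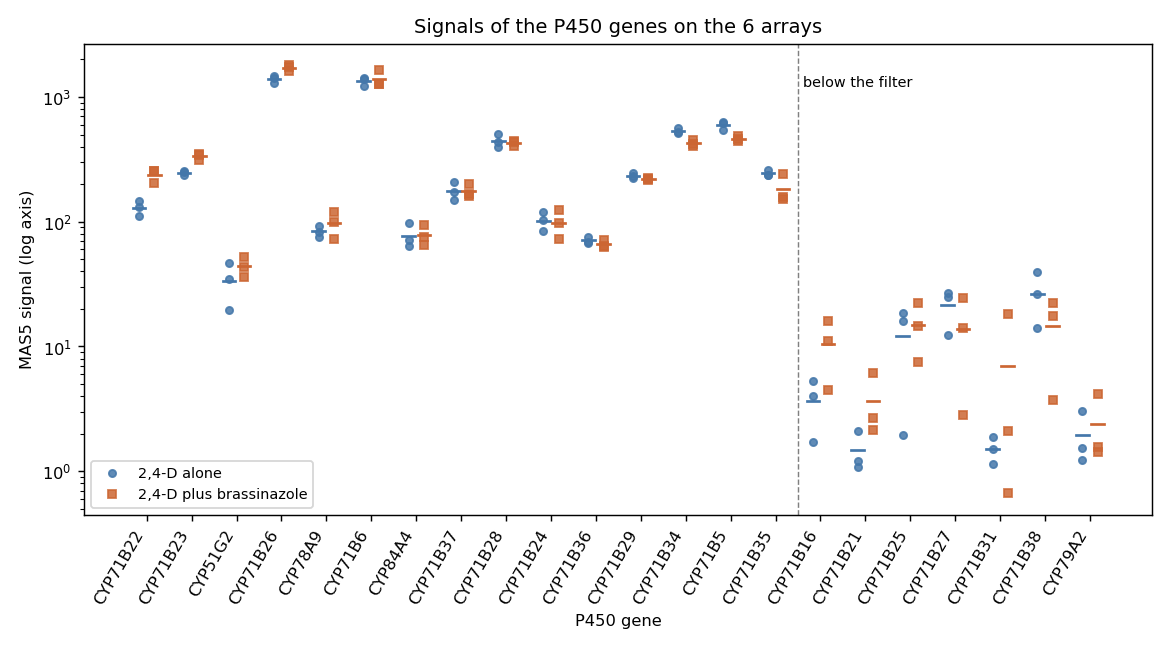
MAS5 signal on a log axis for each of the 22 P450 genes, with 1 point for each array and a bar at the mean of each group of 3. The 15 tested genes are ordered by their change, from CYP71B22, whose brassinazole arrays all lie above its auxin arrays, to CYP71B35, whose groups overlap; the 7 genes right of the dashed line were too dim to test.

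CYP71B22 changed most. Its signal was 131.7, 147.0 and 110.3 on the 3 auxin arrays and 255.5, 254.2 and 205.3 on the 3 brassinazole arrays. Every brassinazole array was above every auxin array, and the lowest of them, replicate 3, still stood above the highest auxin array. The log2 change was 0.81 ± 0.13 (SE), or 1.75-fold with a 95% interval of 1.43 to 2.14, and the adjusted p was 0.00207. The ratio of the mean signals themselves, without the pseudocount, was 1.84. It ranked 292 by p among the 17059 probe sets. The call held with any single array left out (adjusted p of 0.00187 to 0.0139) and was lost without the moderation of variances across probe sets (0.11). A filter at the 50th percentile left the gene out, so it has no value there.

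CYP71B23, the gene next to CYP71B22 in the TAIR10.1 order, rose less. The auxin arrays read 256.3, 249.6 and 234.8 and the brassinazole arrays 314.4, 341.4 and 349.8. The groups were tight and did not overlap. Its log2 change was 0.42 ± 0.10 (SE), 1.33-fold, with an adjusted p of 0.0207. That call was lost when auxin 2, auxin 3, brassinazole 2 or brassinazole 3 was left out (adjusted p of 0.0573, 0.072, 0.0805 and 0.0518), without auxin 1 and brassinazole 3 together (0.0828) and without moderation (0.0743).

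CYP71B5 fell. It read 542.0, 618.9 and 629.8 with 2,4-D alone and 489.1, 447.1 and 457.3 with brassinazole. Auxin replicate 1 was the lowest of its group and brassinazole replicate 1 the highest of its own, and the groups still did not meet. The log2 change was -0.35 ± 0.09 (SE), 1.27-fold lower, with an adjusted p of 0.0374. Without any one of the arrays except auxin 1 the adjusted p lay above the threshold, at 0.0558 to 0.132. It was also above with no filter (0.0613), with untrended variances (0.0847) and without moderation (0.142).

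CYP71B34 was the least firm of the 4. Its auxin arrays read 515.6, 526.4 and 568.6 and its brassinazole arrays 421.8, 448.8 and 406.6. The groups did not overlap. The log2 change was -0.32 ± 0.09 (SE), 1.25-fold lower, with an adjusted p of 0.0462. The call was lost with each of the 6 arrays left out (0.0815 to 0.139), with arrays centred on their median (0.059), with quantile normalization (0.062), with no filter (0.0645), with untrended variances (0.0865), without auxin 1 and brassinazole 3 (0.119) and without moderation (0.109). The direction was negative in each of these fits. With an array left out it could not have turned, since the groups did not overlap. The filter, trend and moderation settings left the log2 change itself as it was.

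**Figure D2:**
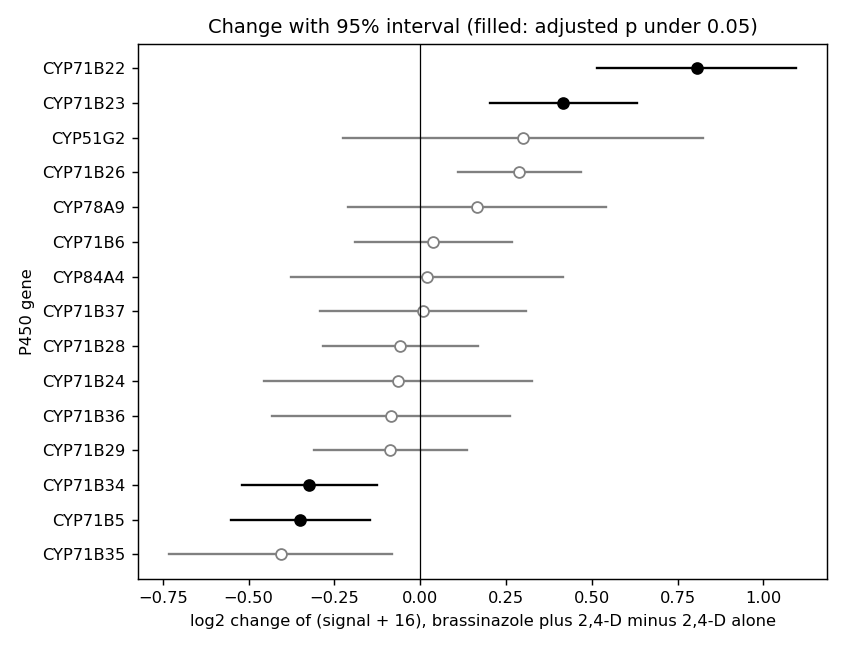
Log2 change of (signal + 16), brassinazole group minus auxin group, with its 95% interval for the 15 tested P450 genes. Filled points passed the adjusted p threshold of 0.05: CYP71B22 and CYP71B23 lie to the right of 0, CYP71B34 and CYP71B5 to the left, and CYP71B26 and CYP71B35 have intervals that leave out 0 but did not pass.

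Of the CYP71B genes that did not pass, CYP71B26 came nearest to the threshold. It read 1481, 1421 and 1293 with 2,4-D alone and 1609, 1734 and 1791 with brassinazole. The brassinazole arrays were all higher. Its log2 change was 0.29 ± 0.08 (SE) and its adjusted p 0.0518, which went to 0.0452 with a filter at the 50th percentile and 0.0441 with arrays centred on their median. It lay above the threshold with any array left out (0.0596 to 0.16) and was highest, at 0.172, without moderation. CYP71B35, next by p, read 237.2, 236.2 and 257.7 in the auxin group and 150.8, 158.0 and 242.4 in the brassinazole group. Brassinazole replicate 3 lay inside the range of the auxin arrays, far from the other two of its group. The log2 change was -0.41 ± 0.15 (SE) with an adjusted p of 0.127. Without brassinazole replicate 3 it was -0.61 with an adjusted p of 0.00787, and without auxin 1 and brassinazole 3 it was -0.62 (0.0246). Leaving out another array of its group made it smaller, at -0.29 without brassinazole 1 (0.334) and -0.32 without brassinazole 2 (0.329).

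The remaining CYP71B genes showed no difference past the threshold. CYP71B6, which acts on indole-3-acetonitrile and so stands near camalexin and indole metabolism, read 1219, 1396 and 1415 against 1262, 1262 and 1638. Its groups overlapped, with a log2 change of 0.04 (95% interval -0.19 to 0.27, adjusted p = 0.883). CYP71B28 had a log2 change of -0.06 (-0.28 to 0.17) and CYP71B29 one of -0.09 (-0.31 to 0.14). The 3 brassinazole arrays of CYP71B29, at 220.5, 223.5 and 214.7, lay just below its 3 auxin arrays, at 244.1, 233.8 and 224.9, so the groups did not overlap although the adjusted p was 0.694. CYP71B24, CYP71B36 and CYP71B37 had log2 changes of -0.06, -0.09 and 0.01, with adjusted p of 0.885, 0.817 and 0.985. The 95% intervals of the fold were 0.730 to 1.25, 0.741 to 1.20 and 0.817 to 1.24, so these transcripts are not shown to have stayed level. In all, 6 of the 15 tested genes had groups that did not overlap, all of them CYP71B, against 27.2% of all probe sets tested. An unadjusted limma p under 0.05 was found for 6 genes, against 21.9% of all probe sets.

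Taken by family number, family 71 held 12 of the 15 tested genes, with 2 higher, 2 lower and a median log2 change of -0.06. Each of the other families had at most 1 tested gene, and none of these passed. CYP51G2, of the family of the sterol demethylase CYP51G1, read 34.5, 46.8 and 19.7 against 43.1, 52.3 and 36.2, dim and overlapping, with a log2 change of 0.30 ± 0.24 (SE, adjusted p = 0.533). CYP78A9, known for its effect on fruit and seed size, read 83.2, 75.1 and 93.02 against 73.3, 119.4 and 99.04, with a log2 change of 0.17 ± 0.17 (adjusted p = 0.648). CYP84A4, an enzyme of arabidopyrone synthesis, read 96.8, 63.7 and 71.6 against 74.9, 65.5 and 94.8, with a log2 change of 0.02 ± 0.18 (adjusted p = 0.97). For CYP84A4 the 95% interval of the fold ran from 0.771 to 1.33, and for CYP51G2 from 0.855 to 1.77. These misses therefore do not show that the transcripts stayed level.

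The other 7 genes were dim, with signals between 0.663 and 39.2, and were left out by the filter. This is 31.8% of the P450 genes, against 25% of all probe sets by the filter's construction. They were CYP71B16, CYP71B21, CYP71B25, CYP71B27, CYP71B31, CYP71B38 and CYP79A2, the last an enzyme that turns phenylalanine into the oxime precursor of benzylglucosinolate. CYP79A2 read 3.06, 1.22 and 1.54 against 1.57, 1.42 and 4.14. CYP71B16 read 1.70, 4.01 and 5.33 against 4.45, 11.1 and 16.1, and CYP71B31 stood at 18.1 on brassinazole replicate 2 but at 0.663 to 2.10 on the other 5 arrays. Values of this size change greatly from array to array, and detection calls were not used here. Fitted with no filter, 0 of these 7 passed limma's test, where only 3.9% of all probe sets passed. With so low a share, 0 of 7 says little about these genes. Their adjusted p was 0.37 to 0.955, and the unadjusted p lay above 0.05 in all 7.

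CYP71B genes lie in tandem, and the gene order of TAIR10.1 was used to set neighbours side by side. A run was taken as P450 genes at most 3 positions apart in that order. The members fell into 4 such runs holding 16 of them, with 11 tested, and 6 members lay outside. All 4 genes that passed lay on chromosome 3, which held 10 of the tested genes. Of the 5 tested elsewhere 0 passed (limma adjusted p of 0.533 to 0.97), where 7.52% of all tested probe sets passed. With so low a share, 0 of 5 says little. Whether the counts differ by chromosome was not tested. In the run from CYP71B16 to CYP71B24, 10 P450 genes long, CYP71B22 and CYP71B23 rose, while CYP71B24, at the end of the run, read 118.6, 103.6 and 84.2 against 123.5, 97.7 and 73.1. The run from CYP71B25 to CYP71B37, 8 genes long, held values of both signs. CYP71B26 had a positive change, CYP71B34 fell, CYP71B35 had a negative change and CYP71B36 and CYP71B37 lay near 0. CYP71B5 belonged to a run of 4 on the same chromosome, where it was the only tested member. On chromosome 1, the neighbours CYP71B28 and CYP71B29 both lay near 0.

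**Figure D3:**
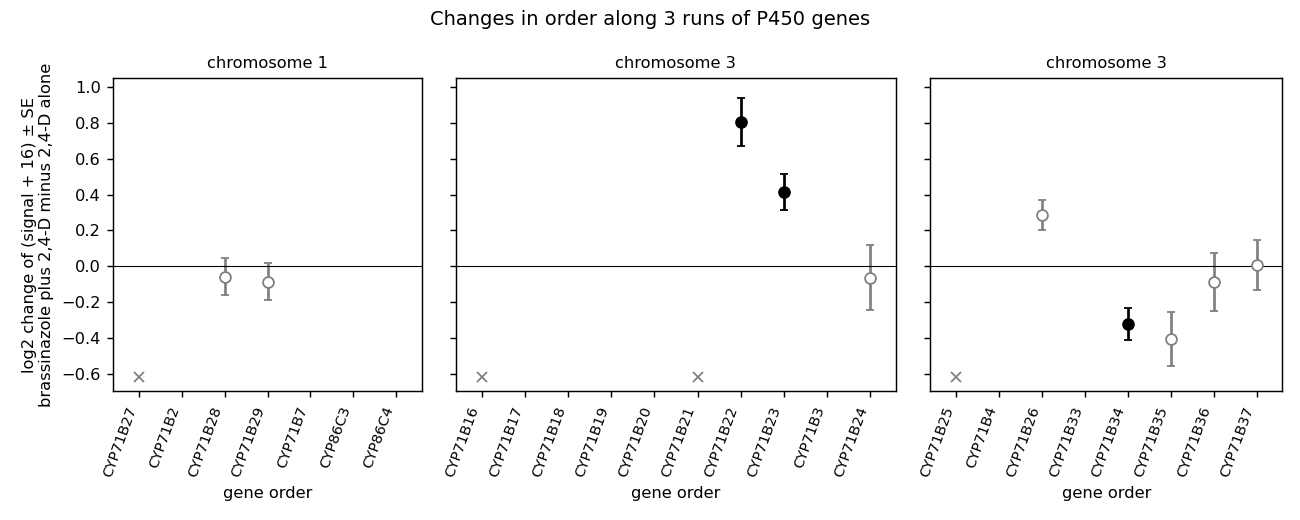
Log2 change ± SE of tested P450 genes in their order along 3 runs of the TAIR10.1 gene table; distances are not to scale. Filled points passed the threshold, crosses at the bottom mark members too dim to test, and names without a mark are P450 genes with no named single-gene probe set. CYP71B22 and CYP71B23 rise side by side, and in the right panel CYP71B26 and CYP71B34 point in opposite directions.

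The change was compared between successive tested genes of a run with an exact permutation test over the 6 arrays, two-sided, on the log2 ratio of their signals within each array. With 3 arrays a group, the smallest p this test can give is 0.1, so none of the 7 pairs compared could pass 0.05. The difference was 0.61 on the log2 scale between CYP71B26 and CYP71B34 (exact p = 0.1, adjusted p = 0.467 over the 7 pairs), and the within-array ratios of the 2 groups did not overlap. Every brassinazole array was above the auxin arrays for CYP71B26 and below them for CYP71B34. Those values fixed the separation and the exact p in advance, so this pair adds nothing to them. The difference was 0.39 between CYP71B22 and CYP71B23 and 0.48 between CYP71B23 and CYP71B24 (exact p = 0.2 each, adjusted p = 0.467 each), with overlapping ratios. The other 4 pairs had an exact p of 0.4 to 1. Neighbouring CYP71B genes are similar in sequence, and how far a probe set binds a close copy was not tested. CYP71B19 and CYP71B20 share 1 probe set, which is assigned to both and so is no member; it read 1299, 1278 and 1376 against 1182, 1232 and 1399, with an adjusted p of 0.776.

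**Figure D4:**
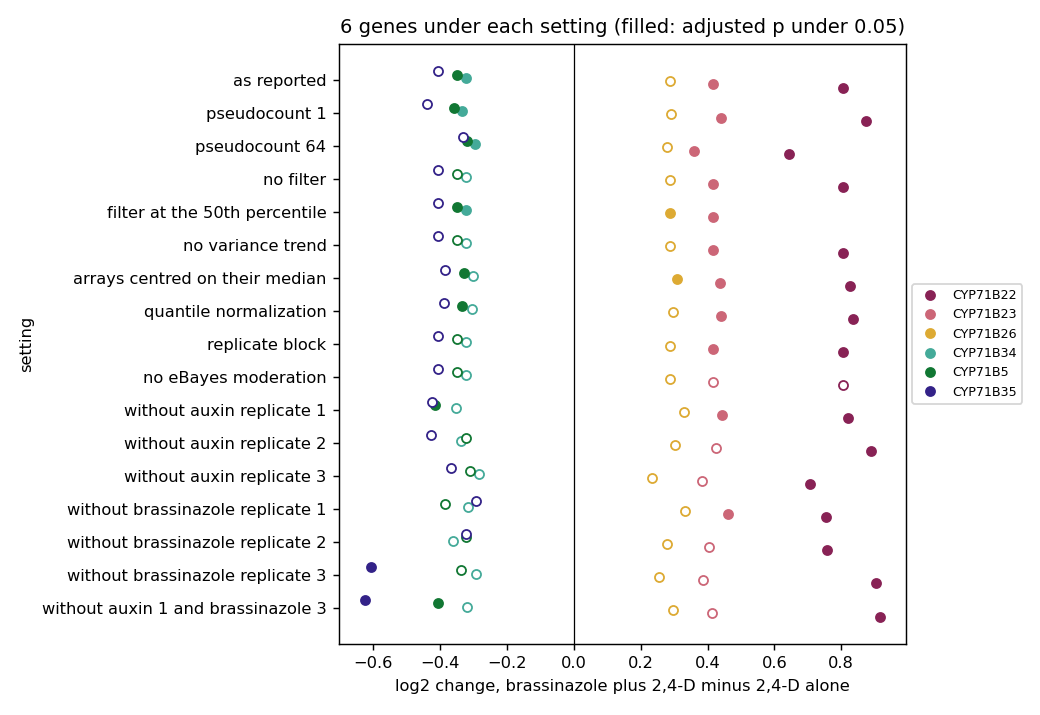
Log2 change of 6 CYP71B genes as reported and under the other settings named on the axis; filled points have an adjusted p under 0.05, and CYP71B22 has no point under the filter at the 50th percentile, which leaves it out. In the settings plotted each gene keeps to 1 side of 0. Leaving out an array could not change the side for the genes whose groups do not overlap, all but CYP71B35. CYP71B22 is open in 1 setting (no eBayes moderation). CYP71B34 is open in most settings, and CYP71B35 is filled in the 2 settings that leave out brassinazole replicate 3.

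P450 genes with a known place in a pathway, and possible electron donors of P450 enzymes, were looked up by locus in 16 lists holding 83 loci. Only 3 of these loci were named by a single-gene probe set, and the 6 brassinosteroid synthesis genes, the 2 for brassinosteroid inactivation and the gibberellin, abscisic acid, cytokinin, jasmonate, strigolactone, glucosinolate, phenylpropanoid, carotenoid, sterol and triterpene lists had none, so they were not analysed here. Besides CYP78A9, the named loci were AT5G08250 in the list of fatty acid hydroxylases and AT3G02280, a diflavin reductase, in the list of electron donors. Whether AT3G02280 serves P450 enzymes was not tested. AT5G08250 read 56.1, 51.5 and 44.6 against 30.4, 41.7 and 24.8. Its groups did not overlap, with a log2 change of -0.48 ± 0.21 (SE) and an adjusted p of 0.208. AT3G02280 read 137.3, 205.8 and 197.1 against 151.5, 142.9 and 142.0, with overlapping groups and an adjusted p of 0.324. With limma, 0 of these 3 passed, against 7.52% of all probe sets tested. AT5G08250 had an unadjusted limma p of 0.0423, and 21.9% of all probe sets tested had one under 0.05. Groups that did not overlap were found for 27.2% of all probe sets tested.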

How the data were processed

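Expression was measured on 6 Affymetrix arrays. The deposited table holds a linear intensity for each probe set on each array. Per the submitters' processing notes the tool was MAS5, with version and detection calls not given here. The mean over the middle 96% of probe sets was close to 500 on every array, so a shift of most transcripts in 1 direction would not be seen. The table held 22810 probe sets, 64 of them controls that were left out. The platform annotation gave 1 gene for 13513 probe sets, several for 503 and none for 8730. Loci and gene order came from the RefSeq table of TAIR10.1, which the array's annotation does not name, so no coordinates are given. No sequences were used here.

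Signals were taken as log2(value + 16), which shrinks the change of dim ones. Probe sets with a mean below the 25th percentile were dropped, so that the dimmest one kept had a mean signal of about 34.2. The two-sided test was that of limma 3.58.1 (R 4.3.3), with lmFit and a trended eBayes. Its p-values were adjusted by Benjamini-Hochberg over the 17059 probe sets tested, with a threshold of 0.05. Means and SDs are of signals, and the number of arrays limits precision. The steps were tested on simulated data. The naming rule took every member past the threshold, the 6 next by p, and up to 3 genes from each list; all other members are given as well, for completeness. The members and lists were chosen with earlier results of these data known. Alternatives changed the pseudocount, filter, variance model, scaling, replicate block, arrays, symbol source and probe sets per gene.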

Additional observations from a re-analysis of the deposited data

How the results depend on the processing

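The count of 4 P450 genes past the threshold, 2 higher and 2 lower, was the same with pseudocounts of 1 and 64. Symbols of the RefSeq table, used on the same fit, gave the same count. Taking 1 probe set per gene could not change it, since each of the 22 genes had 1 probe set. With a filter at the 50th percentile, where 9.35% of all probe sets passed, the count was also 4, but not of the same genes. That filter left 8 P450 genes, CYP71B22 not among them, and CYP71B26 passed instead. The count was 2 (2 higher, 0 lower) with no filter and also without the variance trend, where 3.9% and 4.43% of all probe sets passed against 7.52%. It was 0 (0 and 0) without eBayes moderation, where 0.856% of all probe sets passed. That fit is an ordinary t-test for each probe set. In it 5 P450 genes had an unadjusted p under 0.05. The share of all probe sets under 0.05 in that fit is not given here, so nothing is read from this count. With arrays centred on their median 1 was lower (4 in all), with quantile normalization 1 (3 in all), and without auxin 1 and brassinazole 3 there were 1 higher and 2 lower. Of all probe sets, 7.53%, 7.44% and 4.78% passed in these fits. Each array left out in turn gave 1 to 3 in all, 1 to 2 higher and 0 to 1 lower, where 4.81% to 6.78% of all probe sets passed. Since all calls were in family 71, its counts were the same. The median log2 change of all P450 genes was -0.0724 with a filter at the 50th percentile and -0.0714 to 0.0418 with an array left out. That of family 71 was -0.0248 with no filter. Signs turned for 5 genes, with no adjusted p under 0.05 in any fit. With an array left out, the log2 change ran from -0.138 to 0.0351 for CYP71B28, -0.0855 to 0.1002 for CYP71B6, -0.221 to 0.1025 for CYP71B24, -0.1015 to 0.164 for CYP84A4 and -0.0963 to 0.126 for CYP71B37. Without auxin 1 and brassinazole 3, it was 0.0130 for CYP71B28, -0.153 for CYP71B6, 0.202 for CYP71B24 and -0.0648 for CYP71B37. The cause of these shifts was not tested. With the replicate number as a block, 2 P450 genes passed, 2 higher and 0 lower, where 7.5% of all probe sets passed against 7.52%. CYP71B5 and CYP71B34 did not pass in that fit (limma adjusted p = 0.0515 and 0.0597). Deviations of same-numbered arrays from their group means correlated at 0.04 to 0.06. Each array correlated best with its own number, a hint from the data and not the design. Dim signals limit what could be seen: 7 of 22 genes had signals of 39.2 or less on every array.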
